A study of Danio rerio with 6 samples.

Results

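The genes described here encode channels and transporters that carry ammonium, urea and water across cell membranes. They are the Rh glycoprotein genes rhcgl1 (ENSDARG00000007080) and rhcga (ENSDARG00000003203), the urea transporter gene slc14a2 (ENSDARG00000051914), and the aquaporin genes aqp8b (ENSDARG00000089749) and aqp10a (ENSDARG00000007086). The 5 genes were taken by name from the 31388 genes of the count table of zebrafish larvae, and the choice was made with their difference between the genotypes known. Their difference between genotypes is therefore given below as a description, without a test.

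The samples were 3 pools of fdx1b-/- larvae and 3 pools of siblings, each of 20 whole larvae at 5 dpf collected at circadian time ZT03, without drug treatment. Their counts are labelled CTR, which the study uses for vehicle controls in its dexamethasone experiments. The label does not tell whether these larvae received vehicle. The fdx1b gene encodes a mitochondrial ferredoxin that passes electrons to the enzymes of cortisol synthesis. The study worked with the AB strain, picked the mutants by their impaired visual background adaptation before sampling, and describes them as cortisol-deficient. The labels call the controls siblings, and the study calls them wild-type siblings. No source used here states how the siblings were genotyped or how the pools were composed by clutch. In whole larvae, fewer cells of a type and less RNA per cell cannot be told apart.

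Fish excrete most of their nitrogen as ammonia across the gills and, in larvae, across the skin. Rh glycoproteins are membrane channels for ammonia that are related to the Rh blood group proteins. In zebrafish larvae the Rh protein encoded by rhcgb sits on the apical side of the acid-secreting skin ionocytes, close to a proton pump and a sodium-proton exchanger. Urea, the minor waste product, passes membranes through urea transporters of the SLC14 family. Aquaporins form pores for water, and the aquaglyceroporins among them, such as AQP3, AQP7, AQP9 and AQP10, also pass glycerol and urea. Mammalian AQP8 passes water and ammonia. Cortisol is known in fish as a hormone of salt and water balance.

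The libraries held between 37099965 and 43594050 exonic counts in fdx1b-/- larvae and between 18247332 and 49908095 in siblings, and sibling replicate 2 was the smallest. A gene with 3 counts corresponded to 0.0598 to 0.165 CPM, the normalized counts scaled to the size of the library, a floor for counting error only. The targeted gene fdx1b was at 0.803 ± 0.151 CPM in fdx1b-/- larvae and 0.608 ± 0.0629 CPM in siblings (SD, n = 3 each), with overlapping pools and no call (edgeR adjusted p = 0.421), so that its transcript level did not check the labels. A gene was called where its adjusted p-value (edgeR) reached 0.01 or less and its log2 fold change was 0.25 or more in size. Of 26544 genes tested, 0.618% were called higher and 0.497% lower in fdx1b-/- larvae, 1.12% in all. In 12.9% of the tested genes the 3 mutant pools lay above all 3 sibling pools, and in 13% they lay below, together 26% without overlap. An unadjusted p-value under 0.05 was reached by 9.21% of the tested genes as higher and by 10.4% as lower, and DESeq2 called 2.15% higher and 2.18% lower of the 20422 genes to which it gave an adjusted p-value; the counts of list members below are to be read against these shares. By the same threshold, rhcgl1, rhcga, slc14a2 and aqp10a were lower and aqp8b was higher, and in none of the 5 did the pools of the genotypes overlap. These calls come from the values for which the genes were chosen and carry no further weight.

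Among the ammonium channel genes, rhcgl1 differed most. It had 24.39, 25.97 and 24.74 CPM in the fdx1b-/- pools, against 109.1, 95.03 and 99.50 CPM in the sibling pools. The level in siblings was 4.04 times that in mutants, and the lowest sibling pool stood far above the highest mutant pool. The log2 fold change was -2.02 (SE 0.06). The counts behind these values lay between 896 and 1082 in mutants and between 1724 and 5471 in siblings. The spread was small in both genotypes, with a coefficient of variation of 3.32% in mutants and 7.09% in siblings. Only 12 of the 26544 tested genes had a larger absolute log2 fold change.

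The second Rh gene, rhcga, had 83.9, 78.4 and 80.4 CPM in the fdx1b-/- pools, against 115, 113 and 124 CPM in the sibling pools. It was lower in mutants as well, but by far less. The mean was 80.9 ± 2.77 CPM in mutants and 117.6 ± 5.69 CPM in siblings (SD, n = 3 each), a log2 fold change of -0.54 (SE 0.06). The exons of rhcgl1 and rhcga are 1972 and 2172 bases long, so their levels can be compared per length. In RPKM, which is CPM per kilobase of exon, rhcga was at 37.2 ± 1.28 and rhcgl1 at 12.7 ± 0.421 in mutants. In siblings rhcga was at 54.1 ± 2.62 RPKM and rhcgl1 at 51.3 ± 3.64 RPKM, with overlapping pools. The ratio of rhcga to rhcgl1, each per length, was 2.74 to 3.12 in the mutant libraries and 0.960 to 1.13 in the sibling libraries. Per length, rhcga thus led in every mutant library, while the pair was about equally abundant in siblings.

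The urea transporter gene slc14a2 was far less abundant than rhcgl1 and rhcga in both genotypes. It had 2.12, 2.15 and 2.15 CPM in the fdx1b-/- pools, against 11.1, 9.70 and 9.46 CPM in the sibling pools. The level in siblings was 4.71 times that in mutants, and the log2 fold change was -2.24 (SE 0.11). The mutant values rest on 78, 88 and 94 counts, and the sibling values on 556, 176 and 378 counts. Only 7 tested genes had a larger absolute log2 fold change. The zebrafish protein is known as UT in the RefSeq gene table, and slc14a2 was the only SLC14 gene matched to an identifier.

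The aquaporin gene aqp8b was the one member that was higher in mutants. It had 3.54, 3.15 and 3.31 CPM in the fdx1b-/- pools, against 0.718, 0.441 and 0.651 CPM in the sibling pools. The counts were 130, 129 and 145 in mutants, and 36, 8 and 26 in siblings. The exact 95% Poisson intervals, which cover counting error only, began at 2.63 CPM or above in the mutant libraries and ended at 0.994 CPM or below in the sibling libraries. As aqp8b was chosen with this difference known, the gap between the intervals is no test of it. With 8 counts, sibling replicate 2 is the least certain, with an interval of 0.190 to 0.869 CPM. The mean in mutants was 5.53 times that in siblings, the log2 fold change was 2.38 (SE 0.18), and 3 tested genes had a larger absolute log2 fold change. The coefficient of variation was 5.91% in mutants and 23.9% in siblings.

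The aquaglyceroporin gene aqp10a had 5.88, 5.85 and 6.06 CPM in the fdx1b-/- pools, against 8.07, 9.48 and 9.26 CPM in the sibling pools. It was lower in every mutant pool, by an amount close to that of rhcga. The log2 fold change was -0.58 (SE 0.09), and the coefficient of variation was 1.89% in mutants and 8.47% in siblings. In all 5 genes the relative spread was wider among siblings than among mutants. The smallest library, sibling replicate 2, lay furthest from the sibling mean on the log2 scale only for aqp8b. For rhcgl1, slc14a2 and aqp10a it was sibling replicate 1, and for rhcga sibling replicate 3.

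**Figure D1:**
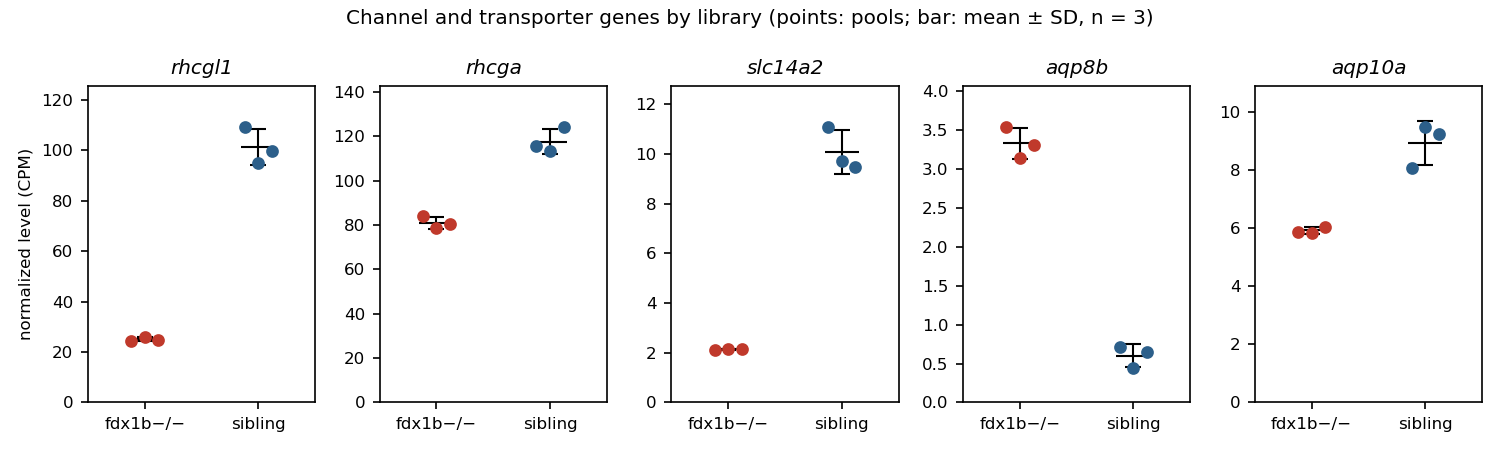
Normalized level in CPM (vertical axis, from 0) of the 5 genes in each library, with fdx1b-/- pools in red and sibling pools in blue; bars give the mean ± SD (n = 3 pools). The mutant and sibling points do not overlap in any panel: rhcgl1, rhcga, slc14a2 and aqp10a lie lower in mutants, and aqp8b lies higher, at 3.15 to 3.54 CPM against 0.441 to 0.718 CPM in siblings.

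Per length, the order of the 5 genes differed between the genotypes. In fdx1b-/- larvae it ran from rhcga and rhcgl1 to aqp8b at 3.36 ± 0.198 RPKM, aqp10a at 3.34 ± 0.0631 RPKM and slc14a2 at 0.777 ± 0.00517 RPKM. The pools of aqp8b and aqp10a overlapped, so that their order in mutants is not resolved. In siblings it ran from rhcga and rhcgl1 to aqp10a at 5.03 ± 0.426 RPKM, slc14a2 at 3.66 ± 0.318 RPKM and aqp8b at 0.607 ± 0.145 RPKM, and only rhcga and rhcgl1 overlapped there. Among all tested genes, the level per length of rhcgl1 stood at the 80.6th percentile in mutants and the 95.8th in siblings, and that of aqp8b at the 41.8th in mutants and the 14.0th in siblings. The gene slc14a2 stood at the 17.5th percentile in mutants and the 43.5th in siblings.

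The other Rh genes of the table were rhag, rhbg, rhcgb and rhd, from a list chosen with results of these libraries known. All 4 were tested, 1 was called lower, 0 were called higher, and 3 did not pass; at an unadjusted p-value under 0.05, 1 was higher and 1 lower, and DESeq2 called 0 higher and 1 lower. The gene that fell was rhcgb, the apical ammonia channel of acid-secreting ionocytes. It had 4.63, 6.19 and 5.90 CPM in the fdx1b-/- pools, against 14.2, 12.7 and 15.9 CPM in the sibling pools. The groups did not overlap, and the log2 fold change was -1.36 (SE 0.12, edgeR adjusted p = 0.00014). The call held whichever of the 6 libraries was left out. The most abundant Rh gene, rhbg, whose mammalian counterpart is a basolateral ammonia channel, was at 428 ± 23.3 CPM in mutants and 457 ± 40.3 CPM in siblings, and rhag, the Rh-associated glycoprotein gene of red blood cells, was at 351 ± 7.002 CPM in mutants and 309 ± 22.5 CPM in siblings (SD, n = 3 each). Neither passed the threshold (log2 fold changes -0.10 and 0.18, SE 0.08 and 0.07, edgeR adjusted p = 0.538 and 0.180). The blood group gene rhd was at 1.91 CPM in mutants and 2.10 CPM in siblings and did not pass either (log2 fold change -0.13, SE 0.19, edgeR adjusted p = 0.744). The lower levels were thus those of the RHCG-type genes rhcga, rhcgb and rhcgl1, of which rhcga and rhcgl1 were chosen for it.

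Summed per length, the 6 Rh genes reached 251 to 262 RPKM in the fdx1b-/- libraries and 288 to 326 RPKM in the sibling libraries. Within that sum, rhcgl1 held 4.94% ± 0.123 in mutants and 16.5% ± 0.863 in siblings (SD, n = 3 each). The share of rhcga was 14.5% ± 0.625 in mutants and 17.4% ± 0.845 in siblings, and that of rhcgb was 0.868% ± 0.129 in mutants and 1.83% ± 0.111 in siblings. The family total, which includes the chosen rhcgl1 and rhcga, was lower in each mutant library than in any sibling library. In CPM, not scaled by length, the 6 genes summed to 871 to 912 in mutants and 918 to 1050 in siblings. Without rhcgl1 and rhcga the other 4 genes summed to 766 to 807 CPM in mutants and 709.7 to 826 CPM in siblings, which overlap. Of the 3 shares that of rhcgl1 differed most between the genotypes.

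**Figure D2:**
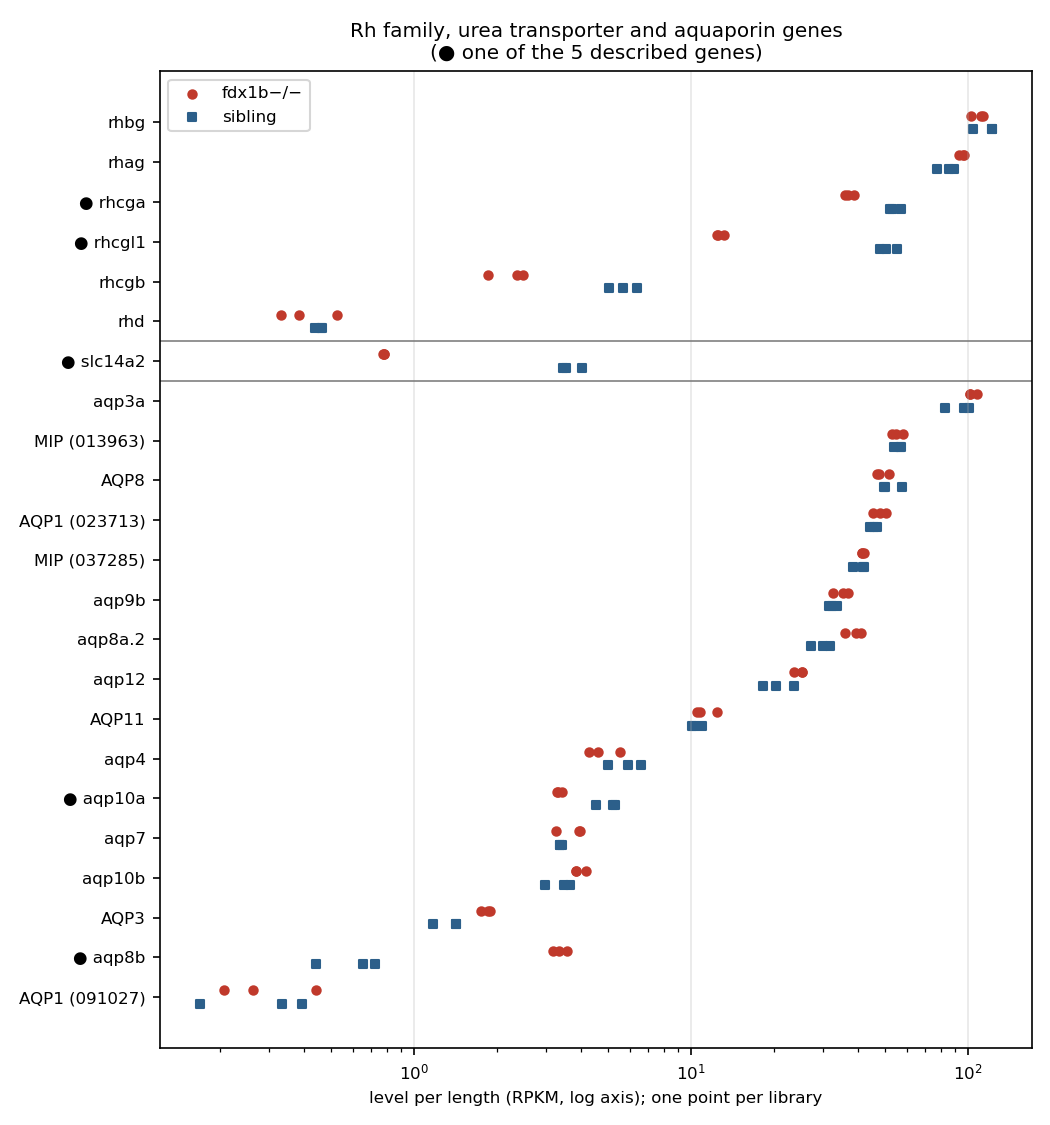
Level per length in RPKM (horizontal log axis) of the matched Rh family, urea transporter and aquaporin genes, with 1 point per library, fdx1b-/- above in red and siblings below in blue; filled dots mark the 5 genes, and numbers in parentheses are the last digits of identifiers that share a symbol. The points of rhcgl1, rhcgb, slc14a2 and aqp8b are separated most, while those of rhbg, the MIP genes and AQP8 overlap between the genotypes.

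The remaining aquaporin genes, from a list also chosen with results of these libraries known, were matched to 14 identifiers, of which all were tested. None was called higher or lower by edgeR, with a median log2 fold change of 0.11 against -0.0028 over all tested genes. At an unadjusted p-value under 0.05, 3 were higher and 0 lower, and DESeq2 called 1 higher and 0 lower. In 5 of them the mutant pools lay above all sibling pools, and in 0 below, against 12.9% above and 13% below over all tested genes. The gene nearest to the threshold was aqp8a.2, a paralog of aqp8b. It had 47.0, 41.2 and 45.1 CPM in the fdx1b-/- pools, against 31.0, 34.1 and 36.2 CPM in the sibling pools. The groups did not overlap, and the log2 fold change was 0.40 (SE 0.07, edgeR adjusted p = 0.0124), just short of the threshold. Over the alternatives this adjusted p ran from 0.00015 with DESeq2 to 0.0754. The AQP8 gene that stands under its human symbol was at 50.01 ± 2.71 CPM in mutants and 53.7 ± 4.57 CPM in siblings (SD, n = 3 each) and did not pass (log2 fold change -0.11, SE 0.07, edgeR adjusted p = 0.421).

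The water channel genes of highest level were aqp3a, an aquaglyceroporin gene, at 104 RPKM in mutants and 93.6 RPKM in siblings, and the MIP gene ENSDARG00000013963 of the lens, at 55.5 RPKM in mutants and 56.1 RPKM in siblings. After them came AQP8, at 48.8 RPKM in mutants and 52.4 RPKM in siblings, the AQP1 gene ENSDARG00000023713, which encodes a pore for water, at 48.0 RPKM in mutants and 45.7 RPKM in siblings, and the second MIP gene, at 41.6 RPKM in mutants and 40.7 RPKM in siblings. None of these passed the threshold, with log2 fold changes of 0.15 for aqp3a, -0.02 and 0.03 for the MIP genes and 0.07 for AQP1 (SE 0.06, edgeR adjusted p = 0.507). The other AQP1 gene was near the floor at 0.251 CPM in mutants and 0.247 CPM in siblings. The further aquaglyceroporin genes did not pass either, with log2 fold changes of 0.47 for AQP3 (SE 0.17), 0.14 for aqp7 (SE 0.09), 0.11 for aqp9b (SE 0.06) and 0.21 for aqp10b (SE 0.11). The brain water channel gene aqp4 had a log2 fold change of -0.26 (SE 0.13), and the values of AQP11 and aqp12 were 0.11 (SE 0.07) and 0.24 (SE 0.08).

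Against this family, aqp8b and aqp10a were minor transcripts. The 16 aquaporin genes summed to 427 to 430 RPKM in the fdx1b-/- libraries and 386 to 420 RPKM in the sibling libraries. Of that sum, aqp8b made up 0.742% to 0.830% in mutants and 0.115% to 0.181% in siblings, and aqp10a 0.771% to 0.793% in mutants and 1.14% to 1.38% in siblings. Per length, aqp8a.2 was 11.4 to 11.8 times as abundant as aqp8b in mutants and 37.5 to 67.2 times in siblings. For the paralogs of AQP10, the ratio of aqp10a to aqp10b was 0.813 to 0.860 in mutants and 1.31 to 1.80 in siblings, so that aqp10a was the more abundant of the pair only in the sibling libraries.

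**Figure D3:**
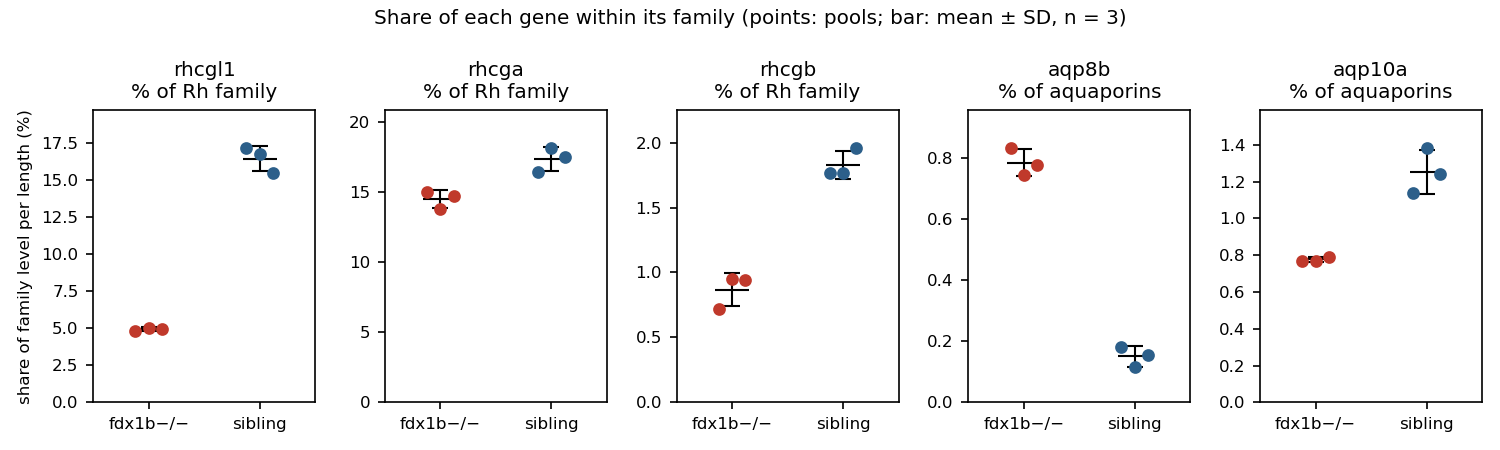
Share of the summed level per length (RPKM) of its family, in percent (vertical axis, from 0), held by rhcgl1, rhcga and rhcgb within the 6 Rh genes and by aqp8b and aqp10a within the 16 aquaporin genes, for each library; fdx1b-/- pools are red, sibling pools are blue, and bars give the mean ± SD (n = 3 pools). The share of rhcgl1 lies at 4.803% to 5.03% in mutants and at 15.5% to 17.2% in siblings, and only aqp8b takes a larger share in mutants.

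Whether the 5 described genes act in skin ionocytes was not tested. Genes for pumps, exchangers and carbonic anhydrases known in these cells were read from a further list. Like the lists below, it was chosen with earlier results of these libraries known. Not all of its 35 symbols could be matched, and atp1a1a.2 and slc12a2 each stood under more than 1 identifier. The levels are those of whole larvae, so the list does not measure these cells alone. Of its 31 identifiers, 1 was called higher and 0 lower by edgeR, and the median log2 fold change was 0.0047, against -0.0028 over all tested genes. At an unadjusted p-value under 0.05, 8 were higher and 5 lower, against 9.21% and 10.4% of all tested genes, and DESeq2 called 3 higher and 1 lower. The gene that rose was ca4b, which encodes a membrane-bound carbonic anhydrase. It had 23.6 ± 1.74 CPM in mutants and 13.5 ± 1.75 CPM in siblings (SD, n = 3 each), a log2 fold change of 0.79 (SE 0.09, edgeR adjusted p = 0.00098), and lost the call in 1 of the 6 fits that left out 1 library, that without sibling replicate 1, in which the list held 0 calls. Without sibling replicate 3 the list held 2 genes called higher. The sodium-proton exchanger gene slc9a3.2 was at 7.33 ± 0.270 CPM in mutants and 9.53 ± 0.166 CPM in siblings, with separate pools, and did not pass (log2 fold change -0.38, SE 0.08, edgeR adjusted p = 0.0315). The carbonic anhydrase gene ca15a, the calcium channel gene TRPV6 and the sodium-chloride cotransporter gene slc12a10.2 had log2 fold changes of 0.09, 0.19 and 0.18 (SE 0.09, 0.10 and 0.08) and did not pass. Between adjusted p-values (edgeR) of 0.01 and 0.05 lay slc12a10.1, clcn2c, atp1a1a.3 and slc26a3.2, with log2 fold changes of 0.44, 0.43, 0.28 and 0.24. In that range, beside slc9a3.2, were also atp2b2 and the slc12a2 gene ENSDARG00000086870, at -0.45 and -0.27. In 9 of the list the mutant pools lay above all sibling pools, and in 8 below, against 12.9% and 13% over all tested genes.

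None of the 7 factors of ionocyte fate was called by edgeR or by DESeq2, and 1 was higher and 0 lower at an unadjusted p-value under 0.05. The forkhead genes foxi3a and foxi3b, which are required for skin ionocytes to form, were at 8.34 and 9.95 CPM in mutants and 7.70 and 8.41 CPM in siblings, with log2 fold changes of 0.10 and 0.25 (SE 0.11 and 0.09, edgeR adjusted p = 0.636 and 0.144). Their summed level with the other factors was 170 to 175 CPM in mutants and 160 to 166 CPM in siblings. The most abundant of the 7 were dlc, at 54.0 CPM in mutants and 49.7 CPM in siblings, and jag2b, at 41.7 and 41.2 CPM. The sum therefore says little about foxi3a and foxi3b. Of the 7 log2 fold changes, 6 were above 0 and 1 was below, that of ESRRA at -0.02, against 50.72% below 0 over all tested genes. The part of the fate factors in the levels of the Rh genes was not tested. None of the 22 proton pump subunit genes was called by edgeR or DESeq2 either, with 1 higher and 1 lower at an unadjusted p-value under 0.05 and log2 fold changes between -0.18 and 0.20. Of the 12 hormones and receptors of salt and water balance, none was called by edgeR or DESeq2. At an unadjusted p-value under 0.05, 1 was higher and 1 lower. Their log2 fold changes lay between -0.87 and 0.18. The lowest was that of pth1a (SE 0.29, edgeR adjusted p = 0.122), at 0.359 CPM in mutants and 0.652 CPM in siblings. Its pools were separate, but its counts were low, at 12 to 36. The 12 genes also included the cortisol receptor gene NR3C1 and the mineralocorticoid receptor gene NR3C2, with log2 fold changes of 0.09 and 0.02 (SE 0.06 for both).

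**Figure D4:**
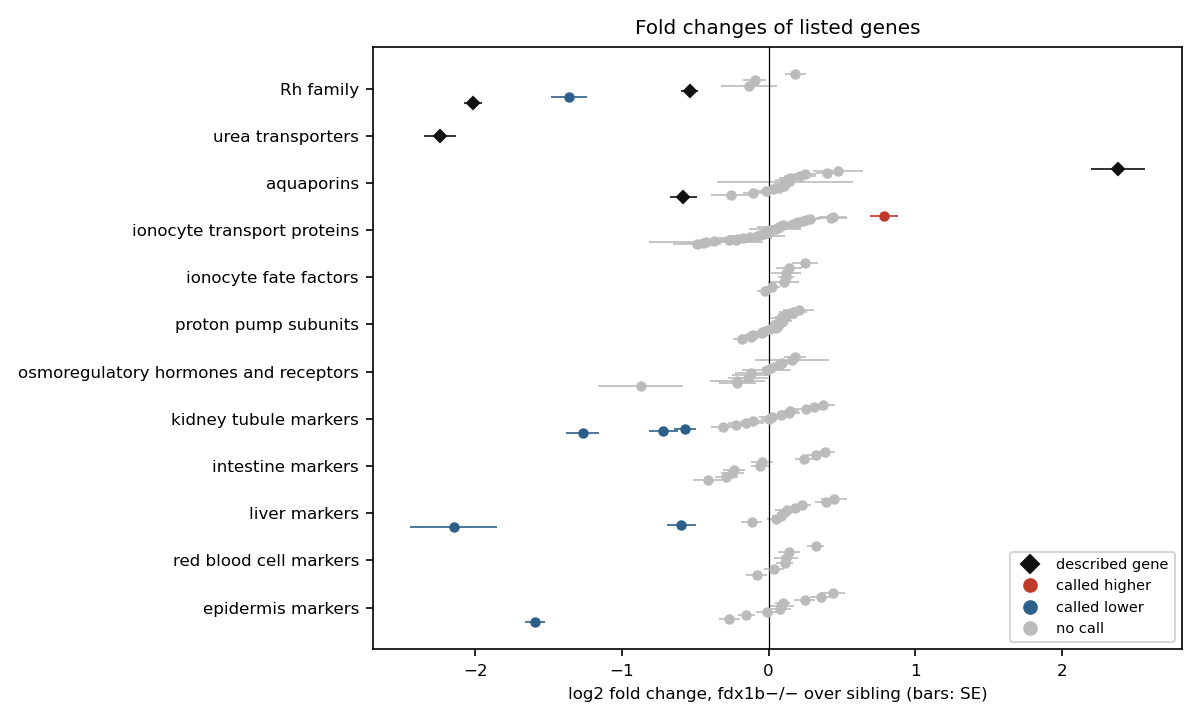
Log2 fold change of fdx1b-/- over sibling larvae (horizontal axis, bars are SE) for each tested gene of the 12 lists; black diamonds are the 5 described genes, red and blue points passed the threshold as higher or lower, and grey points did not pass. Most grey points lie near 0, with that of pth1a, a gene of low counts, furthest out at -0.87. Of the called genes, hpx at -2.15, rhcgb at -1.36, krt17 at -1.59, slc22a6l at -1.27 and ca4b at 0.79 stand apart.

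Organs that could hold these transcripts were read from lists of marker genes, and every matched marker was expressed at a level that could be tested. These lists too were chosen with earlier results of these libraries known. A share of calls among kidney, epidermis, intestine, red blood cell or liver markers is therefore a description and no test of the organ. For the kidney tubule, 3 of 15 markers were called lower and 0 higher, against 0.497% of all tested genes for lower calls, with a median log2 fold change of 0.00064. At an unadjusted p-value under 0.05, 4 were higher and 5 lower, and DESeq2 called 1 higher and 3 lower. The 3 genes called by edgeR encode membrane transporters. They were the organic anion transporter gene slc22a6l, at 7.85 ± 1.05 CPM in mutants and 19.02 ± 2.01 CPM in siblings (log2 fold change -1.27, SE 0.11, edgeR adjusted p = 0.00014), the dicarboxylate transporter gene slc13a3 (log2 fold change -0.72, SE 0.10, edgeR adjusted p = 0.0026) and the sulfate transporter gene slc13a1 (log2 fold change -0.57, SE 0.08, edgeR adjusted p = 0.0020). The tubule marker cdh17, an adhesion gene, did not pass, at 194 CPM in mutants and 175 CPM in siblings, and the markers summed to 703 to 731 CPM in mutants and 680 to 723 CPM in siblings. The markers slc26a1 and hnf1ba did not pass either, with log2 fold changes of 0.37 and 0.31 (edgeR adjusted p = 0.0336 and 0.0458). In both, the mutant pools lay above all sibling pools. Of the 3 calls, 1 was left without mutant replicate 1 and without mutant replicate 2. Their part in the lower levels of the described genes was not tested.

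For the epidermis, 1 of 10 markers was called lower and 0 higher, against 0.497% and 0.618% of all tested genes. DESeq2 called 2 higher and 2 lower, and at an unadjusted p-value under 0.05 there were 3 higher and 3 lower. The marker called by edgeR was the keratin gene krt17, at 89.3 ± 4.97 CPM in mutants and 269 ± 9.98 CPM in siblings (SD, n = 3 each), a log2 fold change of -1.59 (SE 0.07, edgeR adjusted p = 9.0e-07), which passed in each fit that left out 1 library. The other 9 markers did not pass in edgeR, with krt4 at 5226 CPM in mutants and 4887 CPM in siblings. Nearest to the threshold were the keratin genes krtt1c19e and krt92, with log2 fold changes of 0.44 and 0.35 (edgeR adjusted p = 0.0199 and 0.0226). Of the 10 markers, the mutant pools lay above all sibling pools in 3 and below in 3, against 12.9% and 13% over all tested genes. The markers summed to 10480 to 11380 CPM in mutants and 9784 to 10990 CPM in siblings. None of the 9 intestine markers and none of the 6 red blood cell markers was called by edgeR. DESeq2 called 2 intestine markers higher and 1 lower, and 1 red blood cell marker higher, and at an unadjusted p-value under 0.05 there were 3 higher and 4 lower intestine markers and 1 higher red blood cell marker. For the liver, 2 of 11 markers were called lower and 0 higher, against 0.497% and 0.618% of all tested genes. DESeq2 called 2 higher and 2 lower, and an unadjusted p-value under 0.05 was reached by 5 as higher and 2 as lower. The log2 fold change was above 0 in 8 of the 11 and below 0 in 3, against 50.72% below 0 over all tested genes. In 5 the mutant pools lay above all sibling pools, and in 2 below, against 12.9% and 13% over all tested genes. The markers called by edgeR were hpx, which encodes a haem-binding plasma protein, at 1.27 ± 0.604 CPM in mutants and 5.63 ± 1.61 CPM in siblings (log2 fold change -2.15, SE 0.30, edgeR adjusted p = 0.0025), and the plasma protein gene ahsg1 (log2 fold change -0.60, SE 0.10, edgeR adjusted p = 0.0089). Of these, 0 were called without mutant replicate 2, mutant replicate 3 or sibling replicate 1, and 1 without mutant replicate 1 or sibling replicate 3. The liver markers summed to 10620 to 11060 CPM in mutants and 8913 to 10110 CPM in siblings. Most of that sum came from apobb.1, at 6652 CPM in mutants and 6211 CPM in siblings, apoa2, at 1973 and 1450 CPM, and tfa, at 1325 and 1010 CPM. None of these passed, with log2 fold changes of 0.10, 0.44 and 0.39 (edgeR adjusted p = 0.225, 0.0217 and 0.0204).

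The genes whose levels followed each described gene most closely over the 6 libraries were found by Pearson correlation of log2 CPM with 19903 named genes of at least 1 CPM. With 2 genotypes, this measure mostly ranks how cleanly a gene splits them, and it is given as a description. For rhcgl1 the closest gene was slc14a2 (r = 0.999), followed by krt17 and si:ch211-226h7.3 (r = 0.998 for both). For slc14a2 they were rhcgl1, hspb11 and krt17 (r = 0.999, 0.998 and 0.998). The pair rhcgl1 and slc14a2 were thus each other's nearest gene, and krt17 was among the nearest 3 of both. The closest genes of aqp10a were slc13a3 of the kidney list, mych and si:dkey-202l22.6 (r = 0.9997, 0.997 and 0.996), those of rhcga were mylipb, TMEM62 and keap1a (r = 0.994, 0.994 and 0.993), and those of aqp8b, which were higher in mutants, were cfh, slc43a2b and pls1 (r = 0.998, 0.997 and 0.997).

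Within the sibling group the pools did not rank alike for all 5 genes. Sibling replicate 1 was the highest of the siblings for rhcgl1, slc14a2 and aqp8b, and the lowest for aqp10a, while rhcga was highest in sibling replicate 3. The ratio of rhcgl1 to slc14a2 per length was 16.03 to 16.89 in mutants and 13.7 to 14.7 in siblings. It was thus somewhat higher in each mutant library, the genotype with far less of both.

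The 5 genes lie apart in the genome. By the RefSeq table for GRCz12tu (the counts are on GRCz10, so no positions are given), rhcgl1 was on chromosome 6, rhcga on chromosome 7, slc14a2 on chromosome 5, aqp8b on chromosome 3 and aqp10a on chromosome 16. In that table rhcgl1 and rhcga each overlap 1 long non-coding RNA gene, LOC137495989 and LOC141375316, and the other 3 genes overlap none. The study names a stranded library kit, but whether counting used the strand is not given in the sources used here. Whether reads of such a pair were kept apart is therefore not known. No described gene shared its counts in all 6 libraries with another gene of the table.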

How the data were processed

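RNA was taken from 6 pools of 20 whole larvae, and rRNA-depleted libraries were sequenced as single-end reads. The deposited values are raw counts: the authors aligned to GRCz10 using STAR (version 2.4.0i in the submitters' processing notes) and, with a script of their own, summed uniquely mapped reads over the exons of Ensembl gene loci, without normalization. Uniquely mapped reads leave out stretches that paralogs share. Exon lengths in bases are those of the deposited table. 0 columns of per-sample values were left unused.

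The study's supplementary tables and the gene name table gave names for 26073 of 31388 identifiers. Capital symbols are those of the human gene. The 5 genes, the 12 gene lists (164 symbols, 146 identifiers) and the tests were chosen with earlier results of these data known. The text names the 5 genes and each matched Rh, urea transporter and aquaporin gene. It also names the genes past the threshold of a list (at most 5, by size of change) and the 3 genes most alike in level. Named outside this rule, after their values were seen, were slc9a3.2, ca15a, TRPV6, slc12a10.2, foxi3a, foxi3b, ESRRA, NR3C1, NR3C2, cdh17 and krt4. The same holds for slc12a10.1, clcn2c, atp1a1a.3, slc26a3.2, atp2b2, slc12a2, slc26a1, hnf1ba and pth1a.

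The count analysis used edgeR 4.0.16 (R 4.3.3). Library sizes were scaled with TMM, genes were filtered with filterByExpr (26544 kept), and each gene was tested by quasi-likelihood F test, with Benjamini-Hochberg adjustment over all tested genes. The SE is the absolute log2 fold change divided by the square root of F. CPM used the scaled sizes, RPKM divided CPM by exon length, and log2 CPM used a prior count of 2. Replicates are separate pools by their labels; where pools share parents or handling, p-values measure the spread between these samples alone. The fit was tested on simulated data: of 195 changed genes among 26093, 145 were called with the right sign and 0 with the wrong sign, beside 8 genes simulated without change. Alternatives were size factors of DESeq2 1.42.0, upper-quartile factors, no filter, at least 10 counts in every library, the Wald test of DESeq2, a robust fit, a replicate block, each library left out in turn, and an adjusted p-value of 0.05 without a fold limit.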

Additional observations from a re-analysis of the deposited data

How the results depend on the processing

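The log2 fold changes of the 5 genes moved by less than the spread between replicates under each alternative of scaling, filter, test and pairing that kept them; aqp8b had no value where at least 10 counts were asked of every library. Leaving out 1 library at a time, they ran from -2.06 to -1.96 for rhcgl1, -0.56 to -0.50 for rhcga, -2.29 to -2.16 for slc14a2, 2.27 to 2.52 for aqp8b and -0.66 to -0.54 for aqp10a. The number of called genes moved most. Over all genes, 164 were called higher and 132 lower, against 440 and 445 with the Wald test of DESeq2 and 514 and 518 at an adjusted p-value of 0.05 without a fold limit. The fits without 1 library called 49 to 280 higher and 59 to 342 lower: without any single mutant library or sibling replicate 1 at most 61 and 60, without sibling replicate 2 259 and 235, and without sibling replicate 3 280 and 342. Among the other aquaporin genes 0 were called higher, and 1 without a low-count filter, with DESeq2, with the robust fit and at 0.05, and 0 to 1 when 1 library was left out. Of the ionocyte transport genes, DESeq2 called 3 higher and 1 lower, the 0.05 threshold 5 higher and 3 lower, and the fits without 1 library 0 to 2 higher and 0 to 1 lower; the cause was not tested. The single other Rh gene called, rhcgb, was called under every alternative of scaling, filter, test and pairing.

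The sources used here do not state whether the replicate numbers pair the samples. With 3 libraries per genotype, the values below cannot decide it. Deviations from the genotype means correlated at -0.14, -0.14 and 0.09 between libraries numbered 1, 2 and 3, across 26544 genes, and 2 of 6 libraries correlated best with their own number. With the replicate block, 95 genes were called higher and 107 lower.

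Depth limits aqp8b most, with 8 counts in the smallest library.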
